A study of Mus musculus with 6 samples.

Results

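The 40 genes described here encode the glucose transporters, the enzymes of glycolysis and of the pentose phosphate pathway, the lactate dehydrogenases and lactate transporters, and the kinases that hold back pyruvate entry into mitochondria. They are listed by name as the rows of the gene table for these pathways, and they are 40 of the 37991 genes in the table and 40 of the 19480 genes tested. The RNA came from cells labelled as bone endothelial cells (BECs) of c57/Bl6 mice aged 12 weeks, isolated by endomucin, a surface protein of bone vessels. Their transcripts held far more of neutrophil and erythroid markers than of endothelial ones, as given below. The labels name the tibia as the tissue, and the study's methods for cell isolation name femurs as well. The groups are 3 female and 3 male libraries of the same strain, age and tissue, with no treatment, transgene or mutation named for either. The study's methods state that the best samples of each set by RNA quality went into libraries. The labels do not say whether a library came from 1 mouse or from several, so p-values here measure the spread between these samples.

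Glycolysis splits glucose into pyruvate in the cytosol and yields ATP without oxygen, and lactate dehydrogenase and the monocarboxylate transporters then turn pyruvate into lactate and move it across the membrane. The pentose phosphate pathway branches off at glucose-6-phosphate. Its oxidative arm makes NADPH, which serves antioxidant defence, lipid synthesis and the NADPH oxidase of phagocytes, and its non-oxidative arm exchanges sugars with glycolysis. Endothelial cells are known for a strong reliance on glycolysis, and so are neutrophils. Many steps are carried out by isoenzymes, proteins of different genes with the same reaction, whose use differs between cell types.

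The 6 libraries held between 47678806 and 58325745 counts in females and between 49236654 and 50406097 in males. Values of single genes are CPM, the counts scaled to a common library size, after edgeR's TMM normalisation, and 3 counts, taken as the floor, correspond to between 0.0477 and 0.0639 CPM, which covers counting error only. In a principal component analysis of the 500 most variable genes, male replicate 3 lay at 20.3 on the second component, with 31.6% of the variance, and the other libraries lay between -6.92 and -1.88. Calls and values that change with 1 library left out are given with their results. The label of the cells was compared with cell type markers. Endomucin itself (Emcn) lay between 3.1 and 10.5 CPM over all libraries, and 24 endothelial markers together held 469 to 678 CPM in females and 283 to 433 CPM in males. The 18 neutrophil markers together held 20079 to 24628 CPM in females and 33943 to 46126 CPM in males. None of these endothelial or neutrophil markers was at 0 in any library. The 12 erythroid markers held 12270 to 17595 CPM in females and 18576 to 27293 CPM in males. Summed neutrophil and erythroid markers exceeded summed endothelial markers in every library. In bulk RNA, fewer cells of a type and less RNA per cell cannot be told apart.

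All 40 genes passed the filter on low counts, and the lowest count of any of them in any library was 7, for Pgam2. Together they took 0.525%, 0.557% and 0.547% of all counts in female replicates 1, 2 and 3, and 0.622%, 0.626% and 0.591% in male replicates 1, 2 and 3. The male shares all lay above the female ones. Males were compared with females by edgeR's quasi-likelihood test, adjusted over all genes tested by Benjamini-Hochberg. None of the 40 passed an adjusted p of 0.05, where 0.0411% of all genes did, and the smallest adjusted p was 0.110, for Slc2a3. At an unadjusted p under 0.05, 8 of the 40 passed (20%), against 9.79% of all genes. Of these, 6 were higher in males, which is 15% of the 40 against 5.03% of all genes, and 2 were higher in females, which is 5% against 4.76%. This count was 4 without male replicate 2, 5 without female replicate 1 and 8 without male replicate 3. DESeq2, the tool the study used, gave an adjusted p to 39 of the genes and called 3 of them (7.69%), all higher in males, where it called 2.02% of all genes with an adjusted p and 1.28% as higher in males. DESeq2 called 0 of the 40 without male replicate 2 and 3 without male replicate 3.

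The 3 male values lay wholly above the 3 female values for 9 genes, which is 22.5% of the 40 against 7.25% of all genes tested. They lay wholly below for 1 gene, 2.5% against 7.29%. The fitted log2 fold change of males over females was above 0 for 24 genes and below 0 for 16. Its median was 0.10 over the 40 and -0.00 over all genes, and for 26 genes it lay within 0.2 of 0. The median over the 40 was 0.05 without male replicate 3 and 0.06 without female replicate 1. The range ran from -0.89 for Pklr to 0.67 for Slc16a3. The median coefficient of variation within a sex was 10.9% in females and 10.5% in males.

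**Figure D1:**
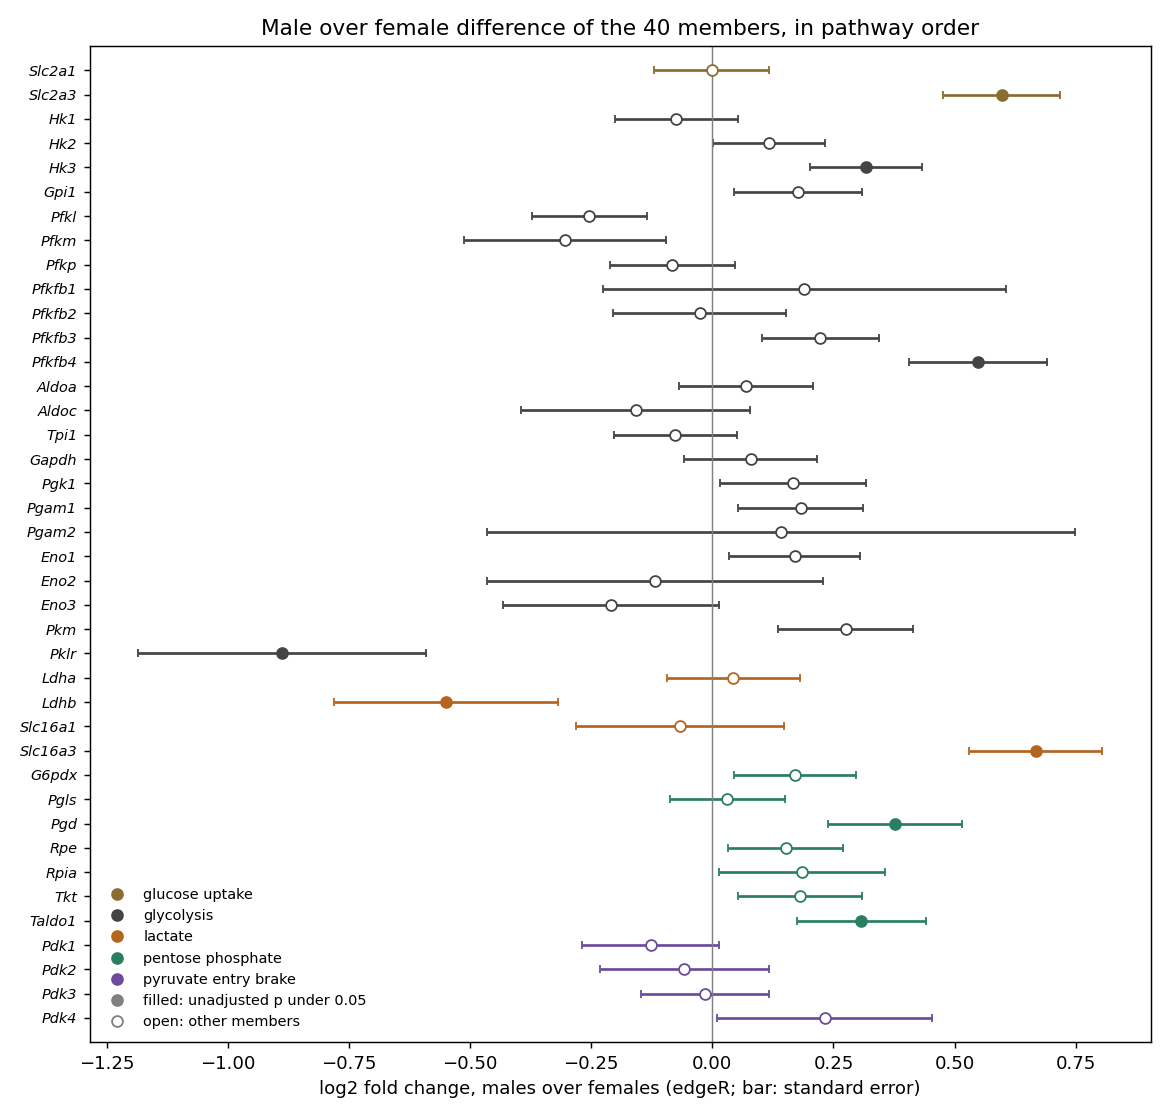
Fitted log2 fold change of males over females for each of the 40 genes, from glucose uptake at the top to the pyruvate dehydrogenase kinases at the bottom. Bars are the standard errors of edgeR's fit and filled points mark an unadjusted p under 0.05. The points range from -0.89 for Pklr to 0.67 for Slc16a3, and 26 of them lie within 0.2 of 0.

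Glucose enters through facilitative transporters, and the measured pair differed in how they compared between the sexes. Slc2a3 encodes GLUT3, a transporter with high affinity for glucose that neurons and white blood cells use (ENSMUSG00000003153, chromosome 6 of GRCm39 from 122704768 to 122778599, minus strand). It had 123, 125 and 122 CPM in female replicates 1, 2 and 3, and 181, 210 and 168 CPM in male replicates 1, 2 and 3. The female values were nearly equal and all male values were higher. The mean was 123 ± 1.68 CPM (SD, n = 3) in females and 186 ± 21.2 CPM (SD, n = 3) in males, a ratio of 1.51. The log2 fold change was 0.60 with a standard error of 0.120 (edgeR, adjusted p = 0.110), and DESeq2 gave an adjusted p of 0.00193. The DESeq2 value was 0.0637 without male replicate 2, the library with the highest level, and edgeR's was 0.0493 without male replicate 3.

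Slc2a1 encodes GLUT1, the transporter found on most cells and at the blood-brain barrier. It had 27.9, 28.1 and 28.1 CPM in females and 26.0, 30.7 and 27.3 CPM in males, so the female values lay within the male range. The log2 fold change was -0.00 with a standard error of 0.119, and it took the other sign under several scalings, so no direction is given. Per kilobase of exon, Slc2a3 made up 73.4%, 73.6% and 73.1% of the pair in females and 81.4%, 81.0% and 79.4% in males. A share within a library does not depend on how libraries are scaled against each other. The means were 73.3 ± 0.248% (SD, n = 3) and 80.6 ± 1.05% (SD, n = 3), a difference of 7.26 percentage points with no overlap. The difference was 5.01 points when the canonical transcript of each gene gave the length. The level of both transporters together was 22.2 to 22.7 CPM per kilobase in females and 28.3 to 34.5 in males, a ratio of 1.38.

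Hexokinases trap glucose by phosphorylation. Hk3, the isoenzyme typical of myeloid white blood cells, was the most abundant per kilobase (chromosome 13 from 55153798 to 55169276, minus strand). It had 123, 145 and 138 CPM in females and 168, 176 and 162 CPM in males. The lowest male library was above the highest female library, with means of 135 ± 11.5 CPM and 169 ± 7.31 CPM (SD, n = 3 each). On the log2 scale the difference was 0.32 with a standard error of 0.116 (edgeR, adjusted p = 0.400, unadjusted p = 0.0205). The unadjusted p was 0.0692 without female replicate 1 and 0.0689 without male replicate 2. Hk1, the housekeeping form bound to mitochondria, had 69.9 to 78.4 CPM in females and 65.0 to 82.4 CPM in males. Hk2, the insulin-responsive form of muscle and fat, had 33.1 to 39.1 CPM in females and 38.5 to 41.3 CPM in males. Both overlapped between the sexes. The share of Hk3 among the hexokinases was 67.9%, 68.8% and 68.1% in females and 70.7%, 74.7% and 73.5% in males, a difference of 4.68 percentage points without overlap.

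Phosphofructokinase-1 commits the sugar to glycolysis, and its liver type Pfkl was the leading form per kilobase. Pfkl had 54.1, 62.5 and 50.8 CPM in females and 49.3, 44.1 and 47.0 CPM in males. It was the only one of the 40 genes whose 3 female values all lay above the 3 male values. Its log2 fold change was -0.25 with a standard error of 0.119 (edgeR, adjusted p = 0.521). Exons of Pfkl share 5126 bases with exons of the opposite-strand gene Cfap410, which had a mean of 11.1 CPM in females and 11.2 CPM in males. The muscle type Pfkm and the platelet type Pfkp overlapped between the sexes, and so did the shares of all 3 forms.

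Fructose-2,6-bisphosphate, the strongest activator of phosphofructokinase-1, is made and broken down by the bifunctional enzymes of the Pfkfb genes. Pfkfb4 (chromosome 9 from 108820832 to 108862847, plus strand) had 49.7, 45.8 and 41.2 CPM in females and 62.4, 79.6 and 57.9 CPM in males. All male values were above all female values, and male replicate 2 was the highest. The means were 45.6 ± 4.21 CPM and 66.6 ± 11.5 CPM (SD, n = 3 each), a ratio of 1.46. Its log2 fold change was 0.55 with a standard error of 0.142 (edgeR, adjusted p = 0.231). DESeq2 gave an adjusted p of 0.0437, which was lost without any 1 of 5 libraries (0.0659 to 0.586, the highest without male replicate 2) and kept without male replicate 3 (0.00798). Pfkfb3, the form best known from endothelial sprouting, had 44.2, 38.2 and 38.8 CPM in females and 44.5, 52.5 and 44.4 CPM in males. Its sexes did not overlap either, but female replicate 1 lay within 1 CPM of male replicates 1 and 3, and the log2 fold change of 0.22 had a standard error of 0.121 (edgeR, adjusted p = 0.591).

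Among the Pfkfb genes, Pfkfb4 held 51.0%, 52.6% and 50.2% of the level per kilobase in females and 56.9%, 59.1% and 56.3% in males. The share of Pfkfb3 was 37.3% to 40.2% in females and 33.2% to 36.8% in males, and that of Pfkfb2, the heart form, was 8.69% to 9.18% and 6.13% to 7.75%. Each of these shares was without overlap. Pfkfb1, the liver form, held 0.741% to 1.23%.

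**Figure D2:**
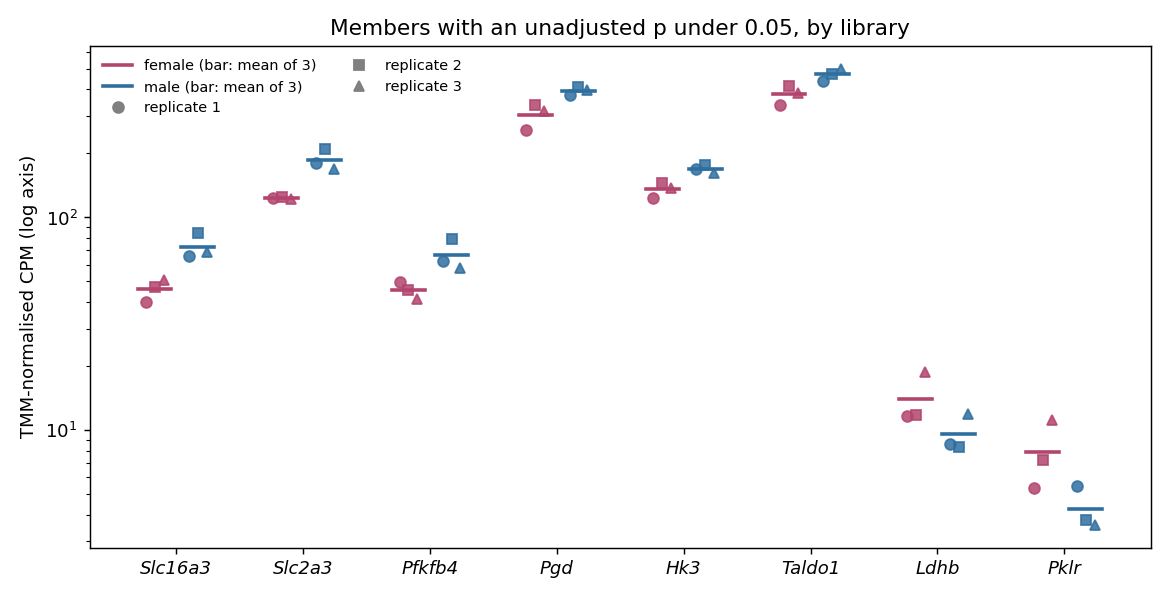
TMM-normalised CPM, on a log axis, of the 8 genes with an unadjusted p under 0.05, with a point for each library and a bar at the mean of each sex. Slc16a3, Slc2a3, Pfkfb4, Pgd, Hk3 and Taldo1 show all male points above all female points, whereas Ldhb and Pklr, at 3.58 to 18.7 CPM, overlap.

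From fructose-1,6-bisphosphate to pyruvate, the main isoenzymes overlapped between the sexes apart from Pkm. Aldoa, the main aldolase, had 371, 482 and 433 CPM in females and 434, 435 and 480 CPM in males. Gapdh, which makes the first NADH of the pathway, had 412, 521 and 500 CPM in females and 514, 478 and 523 CPM in males. The female values spread more widely than the male ones in both cases, with female replicate 1 the lowest. Their log2 fold changes were 0.07 and 0.08, each with a standard error near 0.14, and both were below 0 without female replicate 1. Tpi1, which interconverts the triose phosphates, had 104 to 127 CPM in females and 101 to 122 CPM in males.

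Pgk1, the first enzyme of the pathway to return ATP, had 178, 232 and 239 CPM in females and 210, 255 and 263 CPM in males. Pgam1, the phosphoglycerate mutase, had 133, 156 and 165 CPM in females and 155, 183 and 177 CPM in males. Eno1, the general enolase, had 329, 424 and 371 CPM in females and 404, 418 and 441 CPM in males. Gpi1, the isomerase upstream of phosphofructokinase, had 352, 428 and 377 CPM in females and 420, 471 and 417 CPM in males. In each of these the male mean was 1.12 to 1.13 times the female mean, and at least 1 male library lay below the highest female library. Some of these genes have copies that can share reads. Counts on Eno1b were 37.8% to 40.8% of those on Eno1, counts on the Pgam1 pseudogenes 27.2% to 29.6% of those on Pgam1, and counts on Gapdh-ps16 10.1% to 11% of those on Gapdh, so the levels of these parent genes are uncertain.

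Pyruvate kinase closes the pathway. Pkm, the form of most tissues, took the most counts of the 40 genes, with 619, 747 and 721 CPM in females and 780, 869 and 876 CPM in males. The sexes did not overlap, and the log2 fold change was 0.28 with a standard error of 0.139 (edgeR, adjusted p = 0.561). Pklr, the form of liver and red blood cells, had 5.34, 7.25 and 11.2 CPM in females and 5.45, 3.78 and 3.58 CPM in males. Male replicate 1 was within the female range. Its log2 fold change of -0.89 was the lowest of the 40 and had a standard error of 0.297 (edgeR, adjusted p = 0.356, unadjusted p = 0.0133). Over the alternatives tried the value ran from -1.10 to -0.56, the latter without female replicate 3, its highest library, where the unadjusted p was 0.081. Pklr made up 2.99%, 3.34% and 5.23% of pyruvate kinase in females and 2.43%, 1.53% and 1.44% in males. The difference of -2.06 percentage points by union length was -0.43 points with the canonical transcript, where the mean share of Pklr over all libraries was 0.582% in place of 2.83%. Of the 12 erythroid markers, the 4 globin genes were higher in every male library and the other 8 overlapped between the sexes, and their part in the Pklr values was not tested. The minor isoenzymes of the pathway, Aldoc, Pgam2, Eno2 and Eno3, had means between 0.265 and 9.80 CPM and overlapped between the sexes.

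Per kilobase, lactate dehydrogenase was 94.0% to 97.1% of the A type, which favours lactate formation. Ldha had 257, 314 and 308 CPM in females and 273, 299 and 334 CPM in males. The values overlapped, with a log2 fold change of 0.04 and a standard error of 0.136. Ldhb, the heart type, which favours pyruvate formation, had 11.7, 11.8 and 18.7 CPM in females and 8.56, 8.34 and 11.9 CPM in males. Male replicate 3 lay just above female replicates 1 and 2, so the sexes overlapped. The log2 fold change of Ldhb was -0.55 with a standard error of 0.231 (edgeR, adjusted p = 0.471, unadjusted p = 0.0379). Without female replicate 3, its highest library, the value was -0.29 with an unadjusted p of 0.207, and without male replicates 1 or 2 the unadjusted p was 0.111 and 0.121. As a share of both types, Ldhb held 4.58%, 3.80% and 6.03% in females and 3.20%, 2.85% and 3.63% in males, without overlap.

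Lactate leaves the cell with a proton through monocarboxylate transporters. Slc16a3 encodes MCT4, the exporter of highly glycolytic cells (ENSMUSG00000025161, chromosome 11 from 120838846 to 120851694, plus strand). It had 40.1, 46.9 and 50.7 CPM in females and 65.8, 84.3 and 68.6 CPM in males. The groups were well apart, and male replicate 2 was again the highest. The means were 45.9 ± 5.40 CPM and 72.9 ± 9.98 CPM (SD, n = 3 each), a ratio of 1.59, the largest ratio of the 40. Its log2 fold change was 0.67 with a standard error of 0.138 (edgeR, adjusted p = 0.115). DESeq2 gave an adjusted p of 0.00474, and 0.156 without male replicate 2 and 0.0621 without female replicate 1. Exons of Slc16a3 share 4529 bases with exons of Csnk1d on the opposite strand, which had 104 CPM in females and 102 CPM in males, above the level of Slc16a3, and whether reads of the pair were told apart is not known.

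Slc16a1 encodes MCT1, which carries lactate in either direction. It had 46.6, 36.2 and 69.0 CPM in females and 57.0, 43.6 and 44.2 CPM in males. The female libraries spanned the male ones, and the log2 fold change of -0.07 had a standard error of 0.215. Slc16a3 held 28.7%, 37.7% and 25.6% of the level per kilobase of both transporters in females and 35.0%, 47.5% and 42.0% in males. The mean difference was 10.8 percentage points and the sexes overlapped. Which of the transporters leads depends on the gene length used. Slc16a3 held a mean of 36.1% with the union of exons and 53.7% with the canonical transcript.

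**Figure D3:**
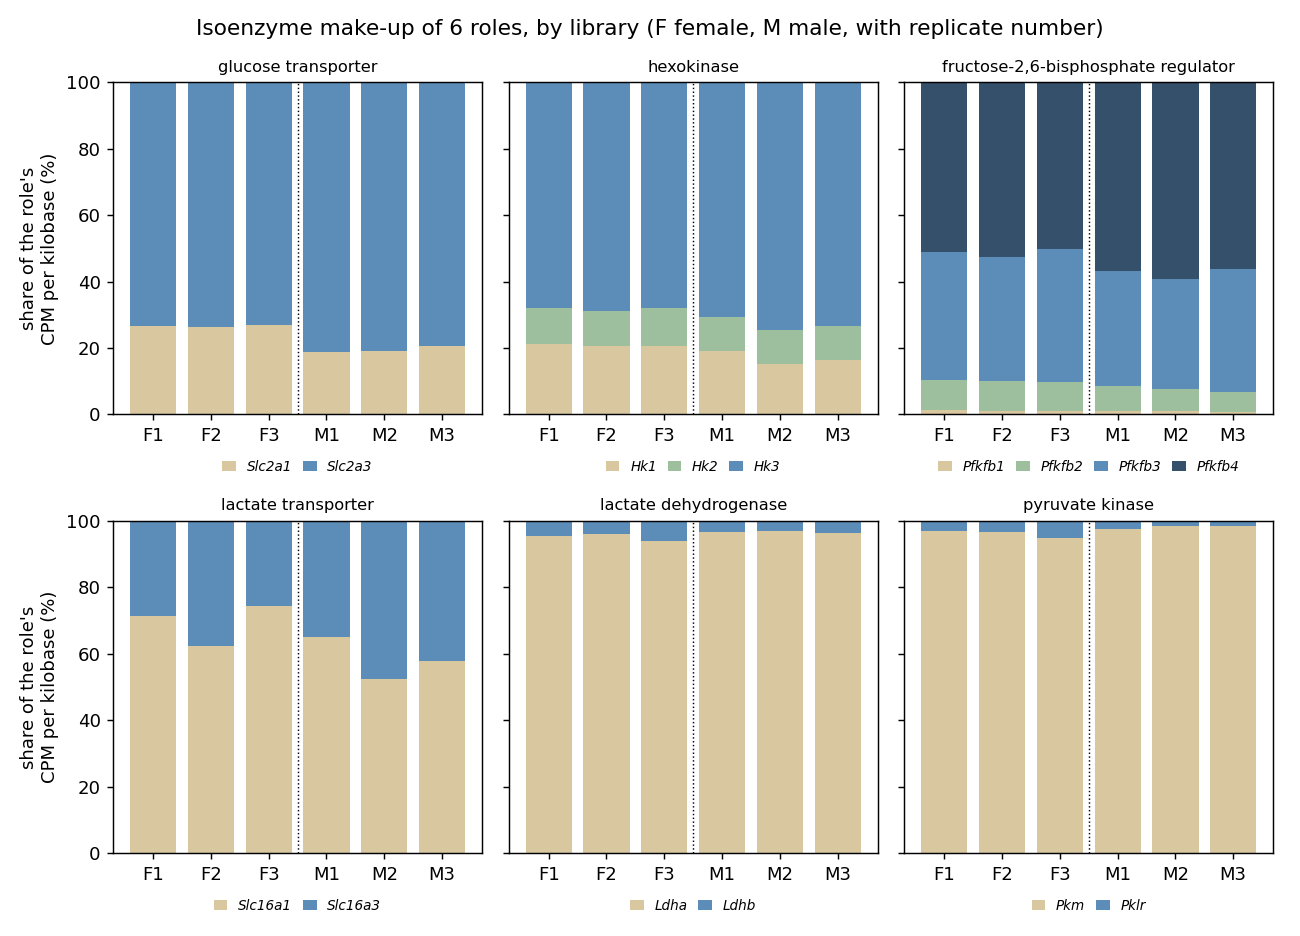
Make-up of 6 roles in each library, as the share of each isoenzyme in the summed CPM per kilobase of exon of its role, with females left and males right of the dotted line. Slc2a3, Hk3 and Pfkfb4 take larger shares in every male library, and Ldhb and Pklr smaller ones, while the lactate transporters overlap between the sexes.

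The promoters of the lactate transporters and of Pfkfb4 are shown because Pfkfb4 and Slc16a3 were higher in males together and Slc16a1 was not. Each window is 300 bases of the RefSeq sequence of GRCm38.p6 on the plus strand, from 250 bases before the start of transcription to 50 bases after it. Capitals mark ACGTG or GCGTG on either strand, the core letters bound by hypoxia-inducible factors, so a match on the other strand reads CACGT or CACGC. The windows lie at chr11:120948817-120949116 for Slc16a3, chr3:104638414-104638713 for Slc16a1 and chr9:108991652-108991951 for Pfkfb4.
Slc16a3: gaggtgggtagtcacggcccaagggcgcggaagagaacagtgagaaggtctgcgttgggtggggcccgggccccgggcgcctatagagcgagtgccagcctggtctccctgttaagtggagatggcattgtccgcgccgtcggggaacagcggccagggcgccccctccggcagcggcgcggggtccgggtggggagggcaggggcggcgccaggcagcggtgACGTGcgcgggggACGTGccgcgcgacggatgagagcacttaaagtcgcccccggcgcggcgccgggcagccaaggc
Slc16a1: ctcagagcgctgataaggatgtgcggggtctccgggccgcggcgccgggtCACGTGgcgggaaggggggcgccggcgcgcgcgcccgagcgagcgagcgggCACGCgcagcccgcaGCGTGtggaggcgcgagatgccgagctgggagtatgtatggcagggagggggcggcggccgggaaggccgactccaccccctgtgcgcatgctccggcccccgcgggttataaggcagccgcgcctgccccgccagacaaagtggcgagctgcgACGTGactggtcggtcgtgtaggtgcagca
Pfkfb4: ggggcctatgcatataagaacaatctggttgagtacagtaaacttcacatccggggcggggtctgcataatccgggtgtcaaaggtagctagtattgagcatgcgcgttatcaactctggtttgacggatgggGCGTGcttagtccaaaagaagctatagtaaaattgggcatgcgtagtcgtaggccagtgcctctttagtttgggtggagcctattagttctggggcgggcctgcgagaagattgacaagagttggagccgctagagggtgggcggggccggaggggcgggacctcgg

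The Slc16a3 window held ACGTG at 2 places. The Slc16a1 window held 5 matches, 3 of ACGTG and 2 of GCGTG. Of the ACGTG matches, 2 are the strands of a CACGTG, the E-box letters that Myc and the MondoA family bind, and 1 lies outside it. The Pfkfb4 window held GCGTG once. RefSeq windows were matched for 39 of the 40 genes, with 60 windows in all. Either motif was found in 43 of the 60 windows (71.7%), against 43.8% of 32851 windows of all genes. ACGTG was in 38.3% against 19.6%, GCGTG in 53.3% against 32.4%, and CACGTG in 10% against 7.15%. The windows of all genes were not matched for base composition. The windows shown for Slc16a3, Slc16a1 and Pfkfb4 were 73.3%, 73.7% and 54.3% G and C. These letters were found in the window of the transporter that overlapped between the sexes as well as in that of the one that did not, and a match is not a site.

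Among the genes of the pentose phosphate pathway, 3 of 7 were higher in every male library than in any female library, as were 7.25% of all genes tested. Pgd, which carries out the second oxidation that makes NADPH (chromosome 4 from 149233246 to 149251228, minus strand), had 258, 339 and 315 CPM in females and 375, 410 and 399 CPM in males. The means were 304 ± 41.7 CPM and 395 ± 17.7 CPM (SD, n = 3 each), a ratio of 1.30. Its log2 fold change was 0.38 with a standard error of 0.138 (edgeR, adjusted p = 0.400, unadjusted p = 0.0204). The unadjusted p was 0.0706 without female replicate 1 and 0.0647 without male replicate 2. Taldo1, the transaldolase of the non-oxidative arm, had 339, 417 and 385 CPM in females and 437, 475 and 501 CPM in males. On the log2 scale it differed by 0.31 with a standard error of 0.134 (edgeR, adjusted p = 0.487, unadjusted p = 0.0435). Its unadjusted p lay between 0.0932 and 0.126 without any 1 of female replicates 1 and 3 and male replicates 2 and 3. Tkt, the transketolase, had 345, 416 and 408 CPM in females and 440, 433 and 453 CPM in males. It was without overlap too, but its log2 fold change of 0.18 had a standard error of 0.128 (edgeR, adjusted p = 0.693). Female replicate 1 was the lowest library for all 3 genes.

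G6pdx, the entry enzyme of the pathway, overlapped between the sexes, with 124, 158 and 148 CPM in females and 163, 170 and 151 CPM in males. So did Pgls, the lactonase that follows it, with a log2 fold change of 0.03, and the isomerases Rpe and Rpia, with 0.15 and 0.18. Exons of Pgls share 935 bases with exons of Niban3 on the same strand. Niban3 had 88.7 CPM in females and 112 CPM in males, so the level of Pgls is uncertain. Within the oxidative arm, Pgd held 43.8%, 48.4% and 49.0% of the level per kilobase in females and 50.6%, 52.7% and 52.4% in males. The level of the 7 pentose phosphate genes together was 266, 319 and 295 CPM per kilobase in females and 340, 357 and 361 in males, a ratio of 1.20 without overlap. The 23 glycolysis genes together reached 486, 597 and 572 in females and 575, 619 and 630 in males, a ratio of 1.10 with overlap, and the 4 lactate genes a ratio of 1.04 with overlap. Summed over all 40 genes the ratio was 1.13, and the lowest male library (1032 CPM per kilobase) and the highest female library (1032) were nearly equal.

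The pyruvate dehydrogenase kinases phosphorylate and switch off the pyruvate dehydrogenase complex. Pdk1, the leading form by union length, had 45.2, 56.2 and 44.8 CPM in females and 44.9, 38.5 and 50.5 CPM in males. Pdk2, Pdk3 and Pdk4 had log2 fold changes of -0.06, -0.02 and 0.23, and all 4 overlapped between the sexes, with a ratio of their summed levels of 0.997.

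In the order of levels per kilobase of exon, averaged over all libraries, Taldo1 stood first with 174 CPM per kilobase, followed by Pgk1 with 102, Aldoa with 81.6, Pgam1 with 76.0 and Gapdh with 68.6. The range over libraries was 139 to 205 for Taldo1, 79.2 to 117 for Pgk1 and 68.9 to 89.6 for Aldoa, so Taldo1 was apart from its neighbour and the next places overlapped. This order depends on the gene models, since the union of exons counts retained introns as length. With the canonical transcript Gapdh stood first with 346 CPM per kilobase and Taldo1 second with 336. The lowest levels were those of Pfkfb1 and Pgam2 with either length.

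Other genes around these pathways were counted from lists, and none of them passed edgeR's adjusted p of 0.05. Of 22 further isoenzymes and partners, 15 were tested, with 3 higher in males at an unadjusted p under 0.05, against 5.03% of all genes. Slc2a6, the transporter GLUT6, had a mean of 15.7 CPM in females and 25.6 CPM in males (DESeq2, adjusted p = 0.00303). Adpgk, the ADP-dependent glucokinase, took the most counts of this list, with 167 and 254 CPM (DESeq2, adjusted p = 0.0178). Bsg, the partner that carries the lactate transporters to the membrane, had 185 and 168 CPM.

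Among 17 tested genes of glycogen metabolism and gluconeogenesis, 3 were higher in males and 4 higher in females at an unadjusted p under 0.05, against 5.03% and 4.76% of all genes. Pygl, the glycogen phosphorylase of liver and white blood cells, took the most counts of these, with 242 CPM in females and 362 CPM in males (DESeq2, adjusted p = 0.00433). Gaa was higher in females without overlap, with 58.4 CPM in females and 40.8 CPM in males. Its adjusted p in edgeR was 0.385, and 0.0355 with the replicate number as a block. None of the 10 genes of the pyruvate dehydrogenase complex and mitochondrial pyruvate entry passed an unadjusted p of 0.05 in edgeR or an adjusted p of 0.05 in DESeq2, and all overlapped between the sexes. Of the 18 genes of the tricarboxylic acid cycle, 3 were higher in females at an unadjusted p under 0.05, against 4.76% of all genes, none was higher in males, against 5.03%, and the median log2 fold change was -0.16. Sdha, a subunit of succinate dehydrogenase, took the most counts of them, with 214 CPM in females and 171 CPM in males.

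Among the 12 regulators of glycolytic transcription, 3 were higher in females at an unadjusted p under 0.05, against 4.76% of all genes. Epas1, which encodes HIF-2α and is abundant in endothelium, had 88.9 CPM in females and 45.0 CPM in males, a log2 fold change of -0.98 (DESeq2, adjusted p = 0.000143). Txnip, which restrains glucose uptake, took the most counts, with 369 and 423 CPM. Hif1a, the other main hypoxia-inducible subunit, had a log2 fold change of -0.06. Of the 6 subunits of the NADPH oxidase of phagocytes, a consumer of NADPH, 4 were higher in males at an unadjusted p under 0.05 and also without overlap, against 5.03% and 7.25% of all genes. Ncf1 had 324 CPM in females and 454 CPM in males (DESeq2, adjusted p = 0.0338), and Rac2, with the most counts, had 570 and 705 CPM.

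Cell type markers also differed between the sexes. All 3 male libraries had higher summed neutrophil markers than any female library, 13 of the 18 markers being without overlap and higher in males against 7.25% of all genes, and male replicate 2, with the highest sum of 46126 CPM, also had the highest Slc2a3, Slc16a3, Pfkfb4, Pfkfb3, Hk3 and Pgd. Pkm, Tkt and Taldo1 were highest in male replicate 3. The order of the other libraries varied by gene. Male replicate 1, with the lowest male sum (33943 CPM), had more Slc2a3, Pfkfb4 and Hk3 than male replicate 3 (41226 CPM). It had less Slc16a3 and Pgd. In females, Pfkfb4 and Pfkfb3 were highest in replicate 1, with the lowest sum (20079 CPM). Slc2a3, Hk3 and Pgd were highest in female replicate 2, with the highest female sum (24628 CPM). S100a9, a major neutrophil protein, reached 17506 CPM in male replicate 2, against 6921 to 8231 CPM in females. S100a8 reached 12524 CPM there, so these genes hold much of the summed 46126 CPM. The list did not rise as a whole. Mpo had means of 276 CPM in females and 181 CPM in males, and Elane 144 and 161 CPM, both with overlap. Endothelial markers were lower in males, with 7 of 24 without overlap and higher in females, against 7.29% of all genes. Of the macrophage and monocyte markers, 9 of 12 were higher in females without overlap, against 7.29% of all genes. Ly6c2, with 186 CPM in females and 273 CPM in males, was higher in males without overlap. The sums of this list were 4863 to 5161 CPM in females and 3451 to 4450 CPM in males. The sums of stromal, B cell, megakaryocyte, T and NK cell and skeletal muscle markers overlapped between the sexes. The part of these cell types in the differences of the 40 genes was not tested.

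**Figure D4:**
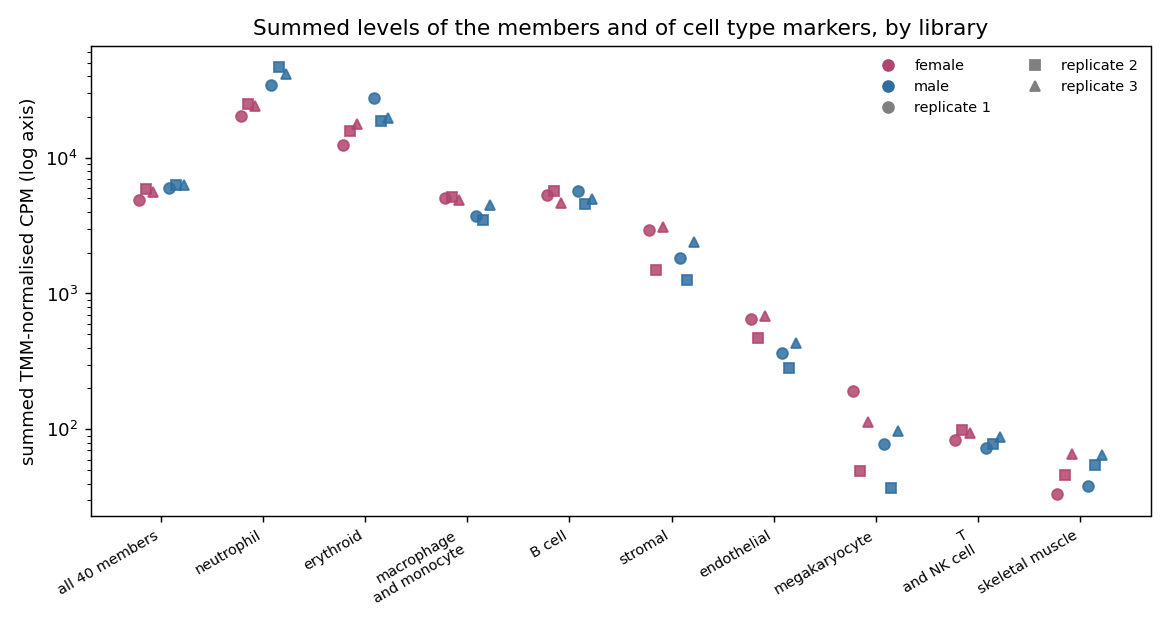
Summed TMM-normalised CPM, on a log axis, of the 40 genes and of the markers of 9 cell types, with a point for each library. Neutrophil and erythroid sums are higher in every male library and endothelial sums higher in every female library, and neutrophil sums exceed endothelial sums throughout.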

How the data were processed

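The 6 libraries of the series were used, 3 female and 3 male, and a library's group came from the sex in its labels. The authors deposited whole-number counts per gene, not normalised and not pooled. The submitters' processing notes name TopHat2 2.0.11, featureCounts and the mm9 build (NCBIM37), whereas the study's methods name STAR, featureCounts and GRCm39. The labels and the methods also differ on kit, instrument and read length. Strand and multimapping settings are not given in the sources used here, so overlapping, antisense and copied genes can share counts. Symbols, positions and lengths came from GENCODE M39, which matched 31073 of the 37991 identifiers. The members and lists were chosen with earlier results of these data known.

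Counts were fitted in edgeR 4.0.16 (R 4.3.3) with TMM, its default filter by sex, robust quasi-likelihood and p-values adjusted by Benjamini-Hochberg over 19480 tested genes. A standard error was taken from a fold change and its F statistic. DESeq2 1.42.0, other scalings and filters, gene lengths, a replicate block and each library left out were alternatives. The fits were tested on simulated data. Libraries were placed by principal components of log2(CPM + 1), centred. A level per kilobase is CPM divided by the union of exon lengths. Full values are given for genes that lead their role per kilobase, those at an unadjusted p under 0.05 and those called by DESeq2 or with the block, and other pathway genes are named where called or most abundant in their list. Bsg and Hif1a were named after their values were seen. A result of the list of further isoenzymes is not reported here. Counts of no 2 libraries agreed within sampling noise, with a chi-square per degree of freedom of at least 26.9 over 15 pairs.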

Additional observations from a re-analysis of the deposited data

How the results depend on the processing

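The number of the 40 genes at an adjusted p under 0.05, 0 in edgeR, was 1 with no filter on low counts, 3 in DESeq2 and 3 with the replicate block. It was 0 to 1 with a library left out, the 1 being Slc2a3 without male replicate 3, and in DESeq2, as an alternative chosen after seeing the data, 0 without male replicate 2, 3 without male replicate 3 and 2 without each of the others. The labels number the replicates within each sex and do not state whether libraries with the same number were paired. Same-numbered libraries deviated together with correlations of 0.194, 0.0402 and 0.298, and 5 of the 6 libraries correlated best with their own number. The block called Slc2a3, Pfkfb4 and Slc16a3, and 428 genes in all (2.20%). The number at an unadjusted p under 0.05, 8 in edgeR, was 4 to 8 with a library left out, and the number without overlap, 10, was 11 to 17, since fewer values overlap less often. The median log2 fold change stayed between 0.05 and 0.12 with a library left out, and the summed level between 0.11 and 0.23.

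Of 299 alternative values of 23 genes, 277 kept their direction and side of the threshold, 8 passed it and 14 took the other sign. Slc2a1, at -0.0016, became 0.0026 with DESeq2's size factors, 0.0030 with at least 10 counts in every library, 0.0092 without genes over 1% of counts and 0.00035 in DESeq2. With a library left out it ran from -0.072 to 0.048, Aldoa from -0.014 to 0.16, Tpi1 from -0.17 to 0.0040, Gapdh from -0.0065 to 0.14, Ldha from -0.036 to 0.11 and Slc16a1 from -0.26 to 0.22. The cause was not tested. Of 117 alternative values for the share of a gene in its role, 111 moved by less than the spread between libraries, and 3 took the other sign. Total counts in place of TMM moved the median of all genes by -0.01. Depth limits Pgam2 and Pfkfb1, the lowest of the 40. All 989 exon bases of Pgam2 are also exons of Dbnl on the opposite strand, with 208 CPM in females and 219 CPM in males. Whether reads of Pgam2 and Dbnl were told apart is not known.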
